A study of Mus musculus with 4 samples.

Results

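Catalase and the other enzymes that remove reactive oxygen species were followed in CA1, a field of pyramidal neurons in the mouse hippocampus, on 4 arrays with 2 dyes. The genes were Cat, Sod1, Sod2, Sod3, Gpx1, Gpx3, Gpx4, Prdx1, Prdx2 and Prdx6. All spots annotated to these 10 genes were taken. Of the 10 genes, 9 had a spot and each of the 9 had 1 spot, among 16281 spots in all and 13738 spots annotated to a single gene. Prdx6 was not analysed here, as no spot carried that name. Cat was chosen by its measured log ratios, which are the highest at 1 h and among the lowest at 4 h, and the other 9 genes by their function. The values of the members are therefore given as a description, with no test.

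On each array, MK C+S mice were set against MK mice. Both groups, young male mice of strain C57BL/6J, had been injected with MK-801, a blocker of the NMDA type of glutamate receptor, at a labelled dose of 300 micrograms per g body weight. MK C+S mice were conditioned 1 h after the drug by 2 min in an unfamiliar chamber followed by a 1 s foot shock of 0.5 mA, given 3 times, and went back to the home cage 1 min after the last shock. MK mice had the drug alone, with RNA taken at matching times. The RNA came from 1, 2, 4 or 6 h after the last shock, with 1 array for each time, MK C+S in the red channel and MK in the green on all 4. The comparison asks how conditioning under NMDA receptor block relates to transcript abundance at each time. The number of animals behind each array, and whether their RNA was pooled, are not stated in the labels.

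The deposited values are log ratios, read here as log10 by assumption, since the base is not stated. Since red is usually divided by green, a positive value is likely to stand for higher abundance in MK C+S, but the labels do not settle this. Between 7.39% and 22.7% of the spots of an array were listed at exactly 0, which was taken as not measured, and each array was centred on the median of its measured spots. With 1 dye orientation, an effect of the dyes and an effect of conditioning cannot be told apart, and in RNA from dissected tissue fewer cells of a type cannot be told from less RNA per cell. Ratios give no level of a transcript, so the CA1 label could not be checked against marker levels. Where a gene had several spots, these differed within an array with a pooled SD of 0.225, 0.204, 0.168 and 0.329 at 1, 2, 4 and 6 h, which is the only error available for a single spot. Pearson's r between arrays over spots lay between 0.0165 and 0.373, as a description of arrays that share spots and dyes.

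Reactive oxygen species arise mainly from respiration and from oxidases. Superoxide dismutases turn superoxide into hydrogen peroxide. Catalase in peroxisomes, the selenium-dependent glutathione peroxidases and the thioredoxin-dependent peroxiredoxins then turn hydrogen peroxide or lipid peroxides into water or alcohols. In brain, catalase activity is known to be low compared with liver and red blood cells, and glutathione peroxidases and peroxiredoxins take a large part of the peroxide load.

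The Cat promoter is shown because Cat is the gene whose values stood apart. It is RefSeq's window of 250 bases before to 50 bases after the gene start, on the minus strand at chr2:103485104-103485403 of GRCm38.p6. Capitals mark CCAAT on either strand, so that ATTGG is the motif read from the other strand.
Cat: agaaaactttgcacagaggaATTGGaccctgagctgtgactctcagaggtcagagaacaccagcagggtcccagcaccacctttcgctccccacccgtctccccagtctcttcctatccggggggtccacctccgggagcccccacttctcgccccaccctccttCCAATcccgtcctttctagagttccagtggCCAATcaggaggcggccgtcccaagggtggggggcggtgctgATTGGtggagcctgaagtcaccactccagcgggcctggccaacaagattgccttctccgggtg
CCAAT occurred 4 times in this window. It was found, on either strand, in 7 of the 11 windows of the 8 member genes with an entry, against 37.4% of all 32851 RefSeq promoter windows of the same length. Counted by gene, it was found for 5 of 8. Gpx4 alone has 4 of the 11 windows, 2 of which overlap each other, so the windows are not independent. Matches of different motifs in the member windows overlapped 0 times. The GC box GGGCGG was found in 10 of these 11 windows, for 8 of 8 genes, and in 35.7% of all windows. The core of the antioxidant response element, TGACNNNGC, was found in the windows of Sod1 and Prdx1, 2 of 11, against 12.4% of all, and not in that of Cat. These matches describe letters only, and no readout of the promoters was taken.

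The log ratios of Cat were 1.57, -0.190, -1.92 and 0.601 at 1, 2, 4 and 6 h. The 1 h array was far above 0, the 4 h array far below, the 6 h array above and the 2 h array closest to 0. If the values are log10 ratios, these are 37.4-fold higher in MK C+S at 1 h, 1.55-fold lower at 2 h, 82.3-fold lower at 4 h and 3.99-fold higher at 6 h. Read as natural logs the sizes at 1, 4 and 6 h would be 4.82-fold, 6.79-fold and 1.82-fold, and as log2 they would be 2.97-fold, 3.77-fold and 1.52-fold. Cat was the highest of 10958 measured spots with a single gene at 1 h and the second lowest of 13098 at 4 h. At 6 h it ranked 530 from the top of 12759, and at 2 h 12.8% of 12846 spots were lower.

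In order of the levels of Cat, 1 h came first, then 6 h, 2 h and 4 h, with gaps of 0.972, 0.791 and 1.73 between neighbours. As Cat was chosen by these values and has 1 spot, no error or test is attached to them. Its mean over the 4 arrays was 0.0171 ± 1.48 (SD, n = 4 arrays of different times), since positive and negative values nearly cancelled. The mean was -0.502 when the 1 h array was left out, and 0.661 when the 4 h array was. Its range of 3.49 was the widest of the 10042 named spots measured on all 4 arrays, where the median range was 0.291 and the next widest, a spot of Plagl1, 2.68.

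**Figure D1:**
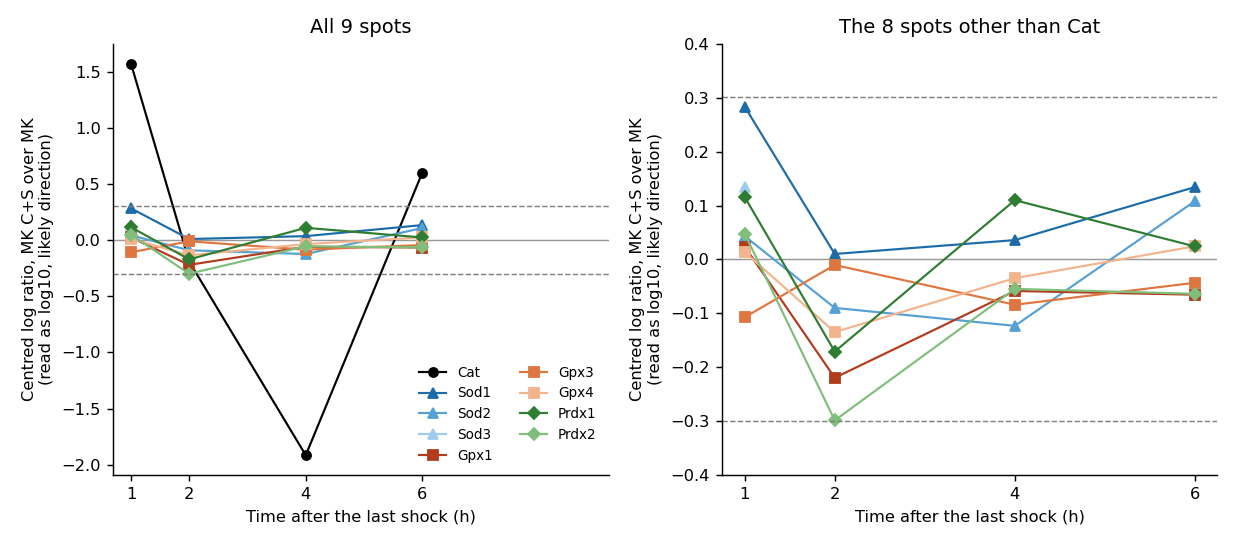
Centred log ratio (vertical axis, read as log10) against hours after the last shock for the 9 antioxidant spots, 1 array a time, with Cat on the left and the other 8 spots enlarged on the right. Dashed lines mark 2-fold. Cat moves between 1.57 and -1.92, while no other spot reaches 2-fold.

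The superoxide dismutases lay closer to 0. Sod1, the copper and zinc enzyme of the cytosol, had log ratios of 0.284, 0.0100, 0.0358 and 0.134 at 1, 2, 4 and 6 h. It was positive on 4 of 4 arrays, with the 1 h array highest, and its mean was 0.116 ± 0.124 (SD, n = 4). The 1 h value corresponds to 1.92-fold, just short of 2-fold.

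Sod2, the manganese enzyme of the mitochondrial matrix, was at 0.0431, -0.0901, -0.123 and 0.108 at 1, 2, 4 and 6 h. It was above 0 on the first and last arrays and below 0 between them. Sod3, the secreted enzyme of the extracellular space, was measured at 1 h only, at 0.134. At 2, 4 and 6 h the Sod3 spot was listed at 0 and had no ratio. All 3 dismutases were thus positive at 1 h.

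The glutathione peroxidases had negative log ratios in 9 of their 12 values. Gpx1, the cytosolic and mitochondrial form, was at 0.0238, -0.220, -0.0587 and -0.0656 at 1, 2, 4 and 6 h, lowest at 2 h. Gpx3, the secreted plasma form, was negative on all 4 arrays, at -0.108, -0.0104, -0.0843 and -0.0434, with a mean of -0.0614 ± 0.0431 (SD, n = 4). Its range of 0.0971 was among the narrow ones, with 5.24% of spots narrower. Gpx4, which reduces lipid peroxides in membranes and guards against ferroptosis, was at 0.0135, -0.135, -0.0349 and 0.0244, again lowest at 2 h.

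Both peroxiredoxins were lowest at 2 h as well. Prdx1 was at 0.116, -0.171, 0.110 and 0.0240 at 1, 2, 4 and 6 h, negative on the 2 h array alone. Prdx2, a form abundant in neurons and red blood cells, was at 0.0478, -0.299, -0.0548 and -0.0639. Its 2 h value corresponds to 1.99-fold lower in MK C+S, just inside the 2-fold line, with 5.14% of spots lower on that array.

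At 2-fold or more in either direction, 1 of 9 member spots passed at 1 h, against a background of 9.37% of all named spots, and 0 of 8 at 2 h, against 7.91%. At 4 h 1 of 8 passed, against 7.96%, and at 6 h 1 of 8, against 25.1%. Each time the spot was Cat, whose values had chosen it, so nothing is read from these counts about the enzymes as a group. The 6 h count was 0 if the values are natural logs (background 5.26%) or log2 logs (1.07%). With the arrays scaled to the same spread, Sod1 also passed at 1 h (background 11.7%) and Prdx2 at 2 h (10.1%).

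Without Cat, the member median was 0.0455, -0.135, -0.0548 and 0.0240 at 1, 2, 4 and 6 h, while centring had put the median of all measured spots at 0. At 1 h 7 of these 8 spots were positive, at 2 h 6 of 7 were negative, at 4 h 5 of 7 were negative and at 6 h 4 of 7 were positive. Over all named spots the negative share was between 49.9% and 50.1%. The negative values at 2 h ran down to -0.299, and the single positive one was Sod1 at 0.0100.

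Among the 7 spots other than Cat with 4 values, ranges lay between 0.0971 and 0.347, and means between -0.0925 for Prdx2 and 0.116 for Sod1. None of their 21 gaps between neighbouring levels exceeded the combined spread between spots of a gene on the 2 arrays, the largest gap being 0.235. Of their 42 pairs of times, 2 exceeded it. Prdx1 differed by 0.281 between 4 h and 2 h, against a spread of 0.264, and Prdx2 by 0.347 between 2 h and 1 h, against 0.304. This spread holds no difference between animals. It can also hold lasting differences between spots of a gene, which cancel when a spot is compared with itself. The 21 gaps are between levels sorted by size, so they are the smallest differences of each spot. No conclusion about change over time is therefore drawn from these counts. A single sign on all 4 arrays was seen for 2 of the 8 spots, Sod1 and Gpx3, and for 21.5% of all 10042 named spots.

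**Figure D2:**
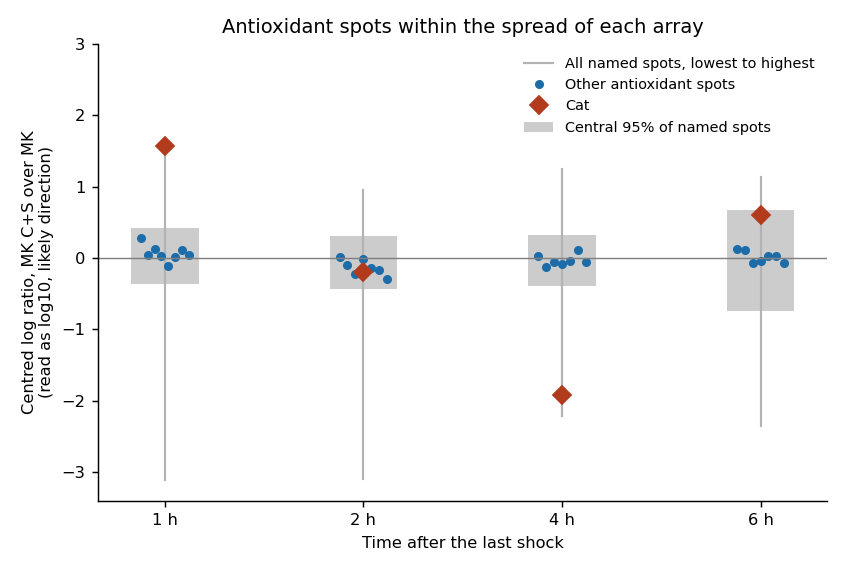
Centred log ratio (vertical axis, read as log10) of Cat (diamonds) and the other antioxidant spots (points) at each time, over the lowest to highest named spot (lines) and the central 95% of named spots (bars). Cat is the top of the array at 1 h and near the bottom at 4 h, and inside the central 95% at 2 and 6 h, while the other enzymes stay inside it at every time.

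Spots with numbers close to that of Cat in the deposited table were smaller in size than Cat at 1 and 4 h. The table does not state whether consecutive numbers adjoin on the array. Unnamed spots were kept among these neighbours, while the backgrounds are of named spots. Within 10 numbers either side of Cat, which is spot 17312, 16 spots were measured at 1 h, with a median of 0.0225, values between -0.399 and 0.494 and 5 past 2-fold (background 9.37% of named spots), the largest in size being Pirb, an inhibitory immune receptor gene. At 2 h the median of 16 was -0.0388, 1 passed 2-fold (7.91%), and Fyn, a Src family kinase gene, was largest in size at -0.385. At 4 h Cat was at -1.92, against a median of 0.0242 and a lowest value of -0.185 among 16 spots, 1 of which passed 2-fold (7.96%), and Ptprs, a receptor phosphatase gene, was largest in size at 0.414. At 6 h, where Cat was at 0.601, the median of 18 was -0.203 and the highest value 0.120, so Cat lay above them all. Of these 18 spots, 7 passed 2-fold (25.1%), and the largest in size was Inppl1, an inositol phosphatase gene, at -0.835. Gpx1 at spot 17295 lies nearby and is described above. After a running median over 51 spots was subtracted, Cat was at 1.54, -0.184, -1.86 and 0.715.

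**Figure D3:**
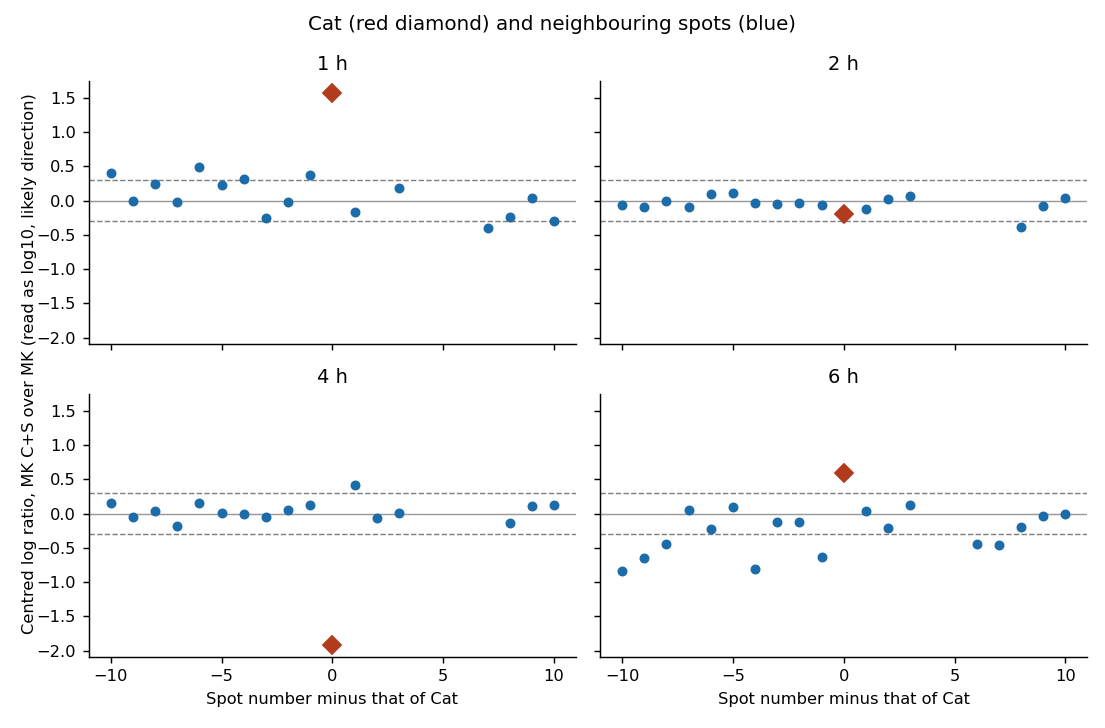
Centred log ratio (vertical axis, read as log10) of Cat (red diamond) and of the spots up to 10 numbers before and after it (blue points), 1 panel for each array, with the difference in spot number on the horizontal axis and dashed lines at 2-fold. At 1 and 4 h Cat stands outside its neighbours, which reach 0.494 at 1 h and -0.185 at 4 h. At 6 h it lies above their highest value, 0.120.

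The spots whose 4 values were nearest to those of Cat were sought among 10041 named spots by the root mean square difference over the 4 arrays. The nearest was H1f4, a linker histone gene, at 0.863, -0.356, -1.12 and 0.280 at 1, 2, 4 and 6 h, with a difference of 0.563. It shared the signs of Cat at all 4 times, at smaller sizes except at 2 h. Vamp1, a synaptic vesicle fusion protein gene, followed at a difference of 0.910 and was at -0.101 at 2 h and -1.78 at 4 h, near Cat, but at 0.0172 at 1 h and -0.328 at 6 h.

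Mageh1 (0.911), Uxs1, which makes UDP-xylose for proteoglycans (0.916), and Bpgm, the enzyme of 2,3-bisphosphoglycerate synthesis in red blood cells (0.924), came next by the same difference. For comparison, the median difference from Cat was 1.29 and a spot at 0 on every array would differ by 1.28. Each of these 5 genes had a single spot. Uxs1 and Bpgm, like H1f4, shared the signs of Cat at all 4 times. Uxs1 was at 0.653, -0.0112, -0.451 and 0.0232, and Bpgm at 0.266, -0.257, -0.712 and 0.0941. Mageh1 differed from Cat in sign at 2 h, at 0.141.

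**Figure D4:**
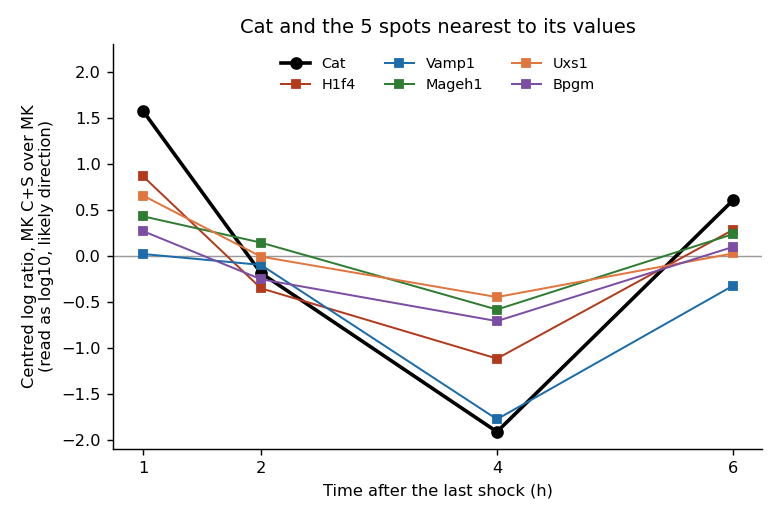
Centred log ratio (vertical axis, read as log10) against hours after the last shock for Cat (black) and the 5 spots with the smallest root mean square difference from it. H1f4 runs from 0.863 at 1 h to -1.12 at 4 h, and the other 4 reach smaller values than Cat at 1 h.

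Markers of other cells that dissected tissue can hold were examined, among them red blood cells, which are rich in catalase. Of 10 choroid plexus markers, 8 had a spot. At 1 h 7 of their 9 measured spots were positive, with a median of 0.491 and values between -1.91 and 0.715. Both ends of this range were spots of Kl, which thus disagreed, with another Kl spot at 0.486. The median was -0.0403, -0.00373 and -0.142 at 2, 4 and 6 h. Past 2-fold at 1 h were 8 of 9 spots (background 9.37%), and 2 of 9 at 2 h (7.91%). At 4 h 2 of 9 passed (7.96%) and at 6 h 2 of 10 (25.1%). At 4 h 4 of 9 spots were positive and 5 negative, with values between -1.27 and 0.203. Ttr, the lowest of the list at 4 h, had no ratio at 1 h and was at -0.665, -1.27 and -0.115 at 2, 4 and 6 h.

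Of 10 erythroid markers, 6 had a spot, and their median was 0.0869, -0.126, -0.0859 and -0.0903 at 1, 2, 4 and 6 h, with 4, 8, 8 and 8 spots measured. The haemoglobin gene Hba-a1 had one spot at 0.0950, -0.0127, -0.0526 and 0.268 and another, with no ratio at 1 h, at -0.240, -0.119 and -0.857. Bpgm was at 0.266, -0.257, -0.712 and 0.0941, and the carbonic anhydrase Car1 at -0.423, -2.66, -2.21 and -0.788. One Slc4a1 spot was at -0.485 at 2 h and -0.406 at 4 h, and another at 0.237 and 0.198. Alas2 was at 0.0434 and -0.0420 at these times, and Epb42 at 0.114 and -0.0521. Positive were 3 of 4 spots at 1 h and 3 of 8 at 2 h. The same held for 1 of 8 at 4 h and 3 of 8 at 6 h. At 1 h 1 of 4 spots passed 2-fold (background 9.37%) and at 2 h 2 of 8 (7.91%). At 4 h 3 of 8 passed (7.96%) and at 6 h 2 of 8 (25.1%). Ratios give no summed level of these lists, and their part in the values of Cat was not tested.

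Astrocyte markers had medians of -0.0717, -0.00193, 0.0232 and 0.140 at 1, 2, 4 and 6 h. Past 2-fold were 2 of 15, 1 of 17, 4 of 17 and 5 of 17 spots. The backgrounds were 9.37%, 7.91%, 7.96% and 25.1%, for the next lists too. Endothelial and mural markers had medians of -0.185, -0.136, -0.120 and -0.0498. Past 2-fold were 1 of 12, 5 of 14, 2 of 14 and 5 of 14 spots. At 2 h they lay between -0.808 for Cldn5 and 0.459 for Pecam1. Microglia markers had medians of 0.0597, -0.0455, 0.0883 and 0.155, with 0 of 14, 0 of 15, 0 of 15 and 3 of 15 spots past 2-fold. Oligodendrocyte markers had medians of -0.0644, 0.0322, 0.0328 and 0.0507, and neuron markers of -0.0605, 0.0356, 0.0364 and -0.0310. Past 2-fold were 3 of 14, 0 of 15, 1 of 15 and 2 of 15 oligodendrocyte spots. For neuron spots the counts were 1 of 10, 0 of 10, 1 of 10 and 1 of 10.

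Genes that work with these enzymes were described in 7 lists, all spots being counted. Up to 3 genes per list are named by the size of their mean over the 4 arrays, and further genes were picked after their values were seen. In limma's moderated test of the mean over the 4 arrays, with Benjamini-Hochberg adjustment, 0 of 127 list spots passed an adjusted p of 0.05, and 0% of all 10042 spots did, with 1082 spots at an unadjusted p under 0.05. For the slope on hours, 0 of 127 and 0% passed as well, with 1622 spots unadjusted. The error here is the spread between times.

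Leaving out an array changed the counts. Without the 4 h array, the slope test called 759 of 10165 spots and 6 of 127 list spots, those of Acox2, Chac1, Ero1b, Gstt1, Pex19 and Txn2. Without the 6 h array it called 11 spots, none of them in a list. For the mean, leaving out the 4 h array gave 1 called spot and leaving out the 6 h array 2, again none of them in a list.

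Peroxisomal genes share the organelle of catalase. Of 39 listed, 28 had a spot, and at 1 h 16 of 26 measured spots were positive, with a median of 0.0999. At 2, 4 and 6 h the medians were 0.0137, 0.0106 and 0.0154. Past 2-fold were 4 of 26 spots at 1 h (background 9.37%), 1 of 31 at 2 h (7.91%), 1 of 31 at 4 h (7.96%) and 5 of 31 at 6 h (25.1%). Hsd17b4, a multifunctional enzyme of peroxisomal beta-oxidation, was at 0.231, 0.109, 0.00665 and 0.101. Gnpat, which starts plasmalogen synthesis, had a mean of 0.150 ± 0.107 (SD, n = 4). Pex19, a chaperone of peroxisomal membrane proteins, had one spot with a mean of 0.281 ± 0.435, resting on 0.919 at 6 h, and another with a mean of -0.0265. The import receptor gene Pex5 had means of -0.165 and -0.0103 on its 2 spots. At 4 h, where Cat was at -1.92, the lowest value of the list was -0.292.

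The thioredoxin system, which recharges the peroxiredoxins, had medians of -0.0778, -0.0610, -0.0226 and -0.00349 at 1, 2, 4 and 6 h, with 16 of 25 spots negative at 1 h and 18 of 25 at 2 h. Past 2-fold were 0 of 25 spots at 1 h (background 9.37%), 1 of 25 at 2 h (7.91%), 1 of 25 at 4 h (7.96%) and 3 of 25 at 6 h (25.1%). The 2 h spot was Srxn1, the sulfiredoxin that reactivates overoxidised peroxiredoxins, at -0.321. Txn1, the cytosolic thioredoxin gene, was positive on all 4 arrays, at 0.113, 0.0957, 0.164 and 0.117. Txnrd2, the mitochondrial reductase, had a mean of -0.144 ± 0.0819 (SD, n = 4) on one spot and of -0.0647 and 0.00373 on the others. Glrx3 had a mean of -0.134 and Msrb1, a methionine sulfoxide reductase gene, of -0.123.

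Glutathione synthesis and recycling genes had medians of -0.0157, -0.0379, 0.0286 and 0.0161 at 1, 2, 4 and 6 h. At 1 h 2 of 18 spots passed 2-fold (background 9.37%) and at 2 h 0 of 22 (7.91%). At 4 h 0 of 21 passed (7.96%) and at 6 h 5 of 21 (25.1%). Gclc, the catalytic subunit of the rate-limiting ligase, was at 0.118, 0.132, 0.208 and -0.0964. Chac1, which breaks glutathione down, had a mean of 0.259 ± 0.482 (SD, n = 4), with 0.968 at 6 h and values no larger than 0.133 before. Gpx2, an epithelial glutathione peroxidase gene, was at -0.620, 0.0945, 0.0407 and -0.203. Idh1, a source of cytosolic NADPH, was at -0.354, 0.0169, -0.0171 and -0.312.

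Glutathione transferases, which conjugate glutathione to electrophiles, had medians of 0.00548, -0.0289, -9.24e-05 and 0.0293 at 1, 2, 4 and 6 h. Past 2-fold were 0 of 18 spots at 1 h (background 9.37%), 1 of 24 at 2 h (7.91%), 0 of 25 at 4 h (7.96%) and 10 of 24 at 6 h (25.1%), when 16 of 24 were positive. The 2 spots of Gstt1 were the lowest and the highest of the list at 6 h, at -0.413 and 0.783. Gsto1 had spots at 0.475 and -0.0229 at 6 h, and Gsta2 at 0.650 and -0.179. The higher spot of each had no ratio at 1 h. Spots of Gsta1, Gsta3 and Gstt2 past 2-fold at 6 h had no ratio at 1 h either. Gstm5 was negative on all 4 arrays, at -0.0997, -0.219, -0.290 and -0.0628, and Gstm4 had a mean of -0.138.

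Genes of the NRF2 axis, the transcriptional response to electrophiles and oxidants, had medians of 0.0280, 0.00826, 0.0241 and 0.0116 at 1, 2, 4 and 6 h. At 1 h 1 of 16 spots passed 2-fold (background 9.37%) and at 2 h 0 of 17 (7.91%). At 4 h 0 of 17 passed (7.96%) and at 6 h 2 of 18 (25.1%). Nfe2l2, which encodes NRF2, was positive on all 4 arrays, at 0.0557, 0.286, 0.0338 and 0.152, and its repressor gene Keap1 was at -0.0503, -0.0364, 0.275 and -0.0242. Hmox1, the inducible heme oxygenase, was at 0.209, 0.129, 1.09e-05 and 0.114, and Nqo1 at 0.274, -0.241, -0.0682 and -0.453. Bach1, a repressor of these targets, had a mean of 0.149 ± 0.106 (SD, n = 4). Ephx1, an epoxide hydrolase gene, was at 0.553 at 1 h and at 0.0234, -0.0376 and 0.0315 later.

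Genes that handle copper, zinc, iron and selenium had medians of -0.0699, 0.0707, 0.00139 and -0.0256 at 1, 2, 4 and 6 h. At 1 h 0 of 13 spots passed 2-fold (background 9.37%) and at 2 h 2 of 17 (7.91%). At 4 h 3 of 17 passed (7.96%) and at 6 h 4 of 17 (25.1%). Ccs, the copper chaperone of Sod1, was negative on all 4 arrays, at -0.0699, -0.166, -0.0658 and -0.0256. Mt2, a metallothionein gene, was at -0.134, 0.0773, 0.259 and 0.392 at 1, 2, 4 and 6 h. Slc11a2, an iron importer gene, had a mean of 0.132 ± 0.0655 (SD, n = 4) on one spot and 0.0638 on the other. Slc40a1, the iron exporter gene, had a mean of -0.127 ± 0.0572. Atp7a, a copper pump gene, had one spot at -1.26, -0.898 and -0.515 at 2, 4 and 6 h and another at 0.0707, -0.0949 and -0.222.

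Enzymes listed as producing peroxide or superoxide had medians of 0.0533, 0.0186, -0.0173 and 0.00647 at 1, 2, 4 and 6 h. Positive at 1 h were 13 of 18 measured spots. The list also held Nos1, Nos2 and Nos3, which make nitric oxide, and Sqor, a sulfide oxidoreductase gene. Past 2-fold at 1 h were spots of Nox4, Cybb, Nos3 and Nos1. At 1 h 4 of 18 spots passed 2-fold (background 9.37%) and at 2 h 4 of 21 (7.91%). At 4 h 1 of 21 passed (7.96%) and at 6 h 5 of 20 (25.1%). These counts were not tested. Aox1, an aldehyde oxidase gene, was at 0.0550, -0.337, -1.02 and -0.684, with a mean of -0.496 ± 0.460 (SD, n = 4). Cybb, the catalytic subunit of the phagocyte NADPH oxidase, was positive on all 4 arrays, at 0.434, 0.169, 0.0781 and 0.0921. Ero1b, an oxidase of protein folding, was at 0.673 at 6 h, after -0.137, 0.0583 and 0.0762 at 1, 2 and 4 h.

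**Figure D5:**
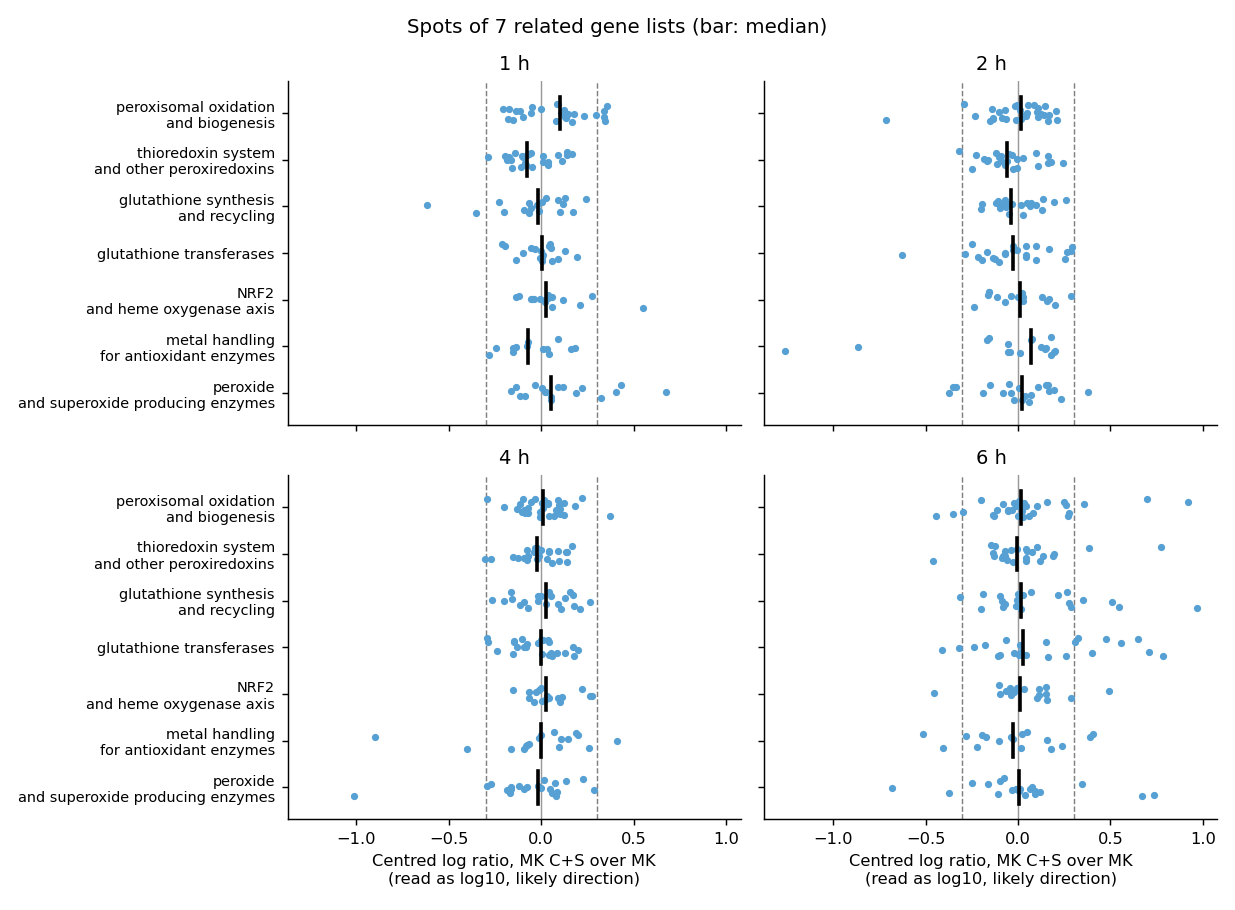
Centred log ratio (horizontal axis, read as log10) of every measured spot (points) of the 7 gene lists at 1, 2, 4 and 6 h, with black bars at each list's median and dashed lines at 2-fold. The list medians lie between -0.0778 and 0.0999, and the points spread most at 6 h.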

How the data were processed

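The authors' deposited table held 1 log ratio per spot and array, taken by assumption as log10. No source used here gives base, centring method, direction, scanner or normalization. Columns were matched to arrays by sample identifier and to times by the labels. An exact 0 was treated as not measured, and each array was centred on the median of its measured spots. Spots were named through a platform annotation. The 52 spots of several genes and 2491 unnamed spots were left out of counts, ranks and fits over named spots. They were kept for the centring, the running median, the correlations between arrays and the neighbours of Cat. Of the named spots, 13694 matched the RefSeq gene table (GRCm38.p6, names only), with 0 symbols changed.

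The mean over arrays and the slope on hours were fitted to all 10042 named spots with 4 values with limma 3.58.1 under R 4.3.3 (linear model, empirical Bayes, two-sided, Benjamini-Hochberg adjustment), and tested on simulated data. Precision is limited by the number of arrays, 1 per time. The members and lists were chosen with earlier results of these data known. Genes named by rule were all members, the 5 spots nearest to Cat, up to 3 genes per list by mean size and the largest neighbour of Cat on each array. Further genes of the 7 lists were picked after their values were seen. Some markers of other cells were also named outside this rule. Alternatives covered thresholds, log base, centring, zeros, scaling, spot order, gene means, array weights, filters and left-out arrays.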

Additional observations from a re-analysis of the deposited data

Results flagged for a closer look

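Cat passed 2-fold in opposite directions at different times. Its log ratio was -1.92 at 4 h, against 1.57 at 1 h, a difference of -3.49 (4 h minus 1 h), and 0.601 at 6 h, against -1.92 at 4 h, a difference of 2.52 (6 h minus 4 h). Both differences rest on a single spot and 1 array for each time, and they were not tested.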

How the results depend on the processing

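Of 122 recomputed values, 109 were counted as close to those reported. These include all 32 means of member spots with an array left out, which shifted by up to 0.644. Each such shift was set against the SD of that spot over the 4 arrays. Leaving out 1 of 4 values cannot exceed this limit, so these 32 say nothing about stability. Among them, the mean of Cat went from 0.0171 to -0.502 without the 1 h array and to 0.661 without the 4 h array. With arrays scaled to the same spread, member spots past 2-fold numbered 2 at 1 h (Sod1 and Cat) and 1 at 2 h (Prdx2). The backgrounds were then 11.7% and 10.1%, and Cat at 4 h was at -2.17. At 1.5-fold, 2 spots passed at 1 h and 3 at 2 h (Prdx2, Gpx1 and Cat), against backgrounds of 27.0% and 26.7%. With natural or log2 logs, 0 passed at 6 h, against backgrounds of 5.26% and 1.07%. The Cat values at 1 and 4 h stayed past 2-fold under every alternative run. The limma mean called 3 spots with array weights and 1 among spots measured on 3 or more arrays, and between 0 and 2 with an array left out. The slope called between 0 and 759 spots with an array left out, the highest without the 4 h array. The cause was not tested. No paired analysis was possible because each time has 1 array. No intensities were used, so signal over background could not be examined.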
